A study of Mus musculus with 147 samples.

Results

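Sertoli cells of the postnatal mouse testis were described by day from birth (PND0) to PND8. They were chosen among the 3244 wild-type cells of these days that had over 2000 detected genes and a total UMI count (unique molecular identifiers, 1 for each captured transcript) of 10000 to 1000000. A cell was a member when it held at least 100 CPM of Sox9 (CPM, the UMIs of a gene scaled to a total of 1000000 per cell or pool), under 150 CPM of Ddx4 and under 100 CPM of Nr2f2. Of the 3244 cells, 212 met the rule (6.54%), and the whole series holds 13032 cells. Cells with at least 100 CPM of Nr2f2 and under 150 CPM of Ddx4 (229 cells) served as the somatic comparison and are called Nr2f2-positive cells. Cells with at least 150 CPM of Ddx4 and under 100 CPM of Sox9 (2670 cells) are called germ cells.

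The series followed male germ cells and gonads over 28 time points with a modified STRT-seq, which barcodes each cell and reads the 3′ ends of its transcripts. The mice were wild-type offspring of BVSC males, which carry the Blimp1-mVenus and Stella-ECFP reporters, and C57BL/6 females, untreated. After birth, cells were picked singly from dissociated testes by the look of germ cells, so that the Sertoli cells here are those that passed such a choice and their number does not measure their share in the testis. A pool is the cells of 1 day and 1 biological replicate in the authors' table of cells, and each of the 9 days has 2 pools. The sample information of the study lists 1 testicular gonad for each of these pools. Litters are not stated, and p-values measure the spread between these pools.

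Sertoli cells are the somatic cells of the seminiferous cords. They enclose the germ cells, feed them with lactate, carrier proteins and growth factors, and later close the blood-testis barrier with tight junctions. In the fetus and after birth they divide and secrete anti-Müllerian hormone (AMH), and with maturation they stop dividing and lose AMH.

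At least 1 member was found in 17 of the 18 pools, and 9 pools held 5 or more (195 cells). These were PND1 replicate 2 with 15 cells, PND2 replicate 1 with 29, PND4 replicate 2 with 22, PND5 replicate 1 with 8 and replicate 2 with 17, PND6 replicate 1 with 29 and replicate 2 with 35, and PND7 replicate 1 with 26 and replicate 2 with 14. PND0, PND3 and PND8 had no such pool, and their 4, 6 and 2 members were kept out of the tests. The summed count of the Sertoli cells was 805445 to 5324929 UMIs per pool. The median cell held 113698 UMIs and 6566.5 genes, against 97845 UMIs in Nr2f2-positive and 287254 UMIs in germ cells. All cells share the same 96 barcodes by design, and no 2 cells had the same counts. The 9 pools come from libraries with 3 name prefixes, 6 of the pools under 1 prefix.

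**Figure D1:**
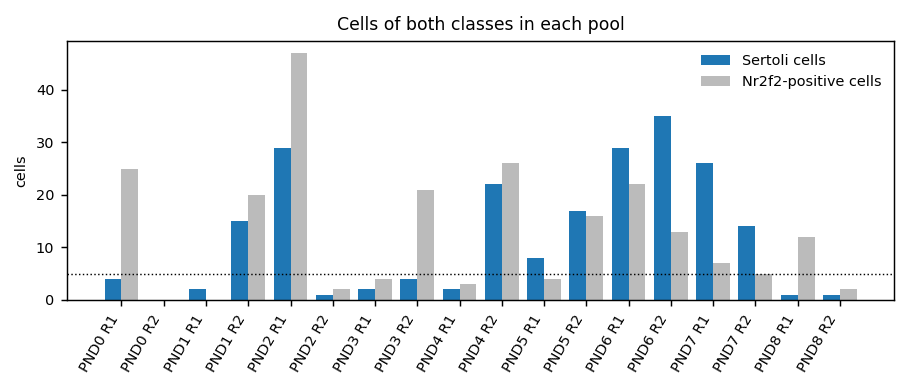
Number of Sertoli cells (blue) and Nr2f2-positive cells (grey) in each of the 18 pools of PND0 to PND8, R1 and R2 being the biological replicates. The dotted line marks the minimum of 5 cells for the tests, which 9 pools reached for Sertoli cells.

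Sox9, a transcription factor that directs Sertoli cell fate, chose the cells, and its levels are only described. The lowest member held 110 CPM of Sox9, and 87 cells failed the rule by Sox9 alone, the nearest at 92.8 CPM. The highest Ddx4 level, of a helicase of germ cells, was 146.5 CPM in a member, with 42 cells failing by it alone from 157 CPM upward. The highest Nr2f2 level, of a nuclear receptor of interstitial cells, was 78.6 CPM, and 34 cells failed by it alone from 145.4 CPM upward. These 34 are counted among the Nr2f2-positive cells.

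The label was checked against 3 markers that the rule did not use. Amh encodes the hormone that removes the Müllerian ducts, Wt1 a transcription factor of the gonadal supporting lineage and Inha the alpha subunit of inhibin. At 100 CPM or more, Inha was found in 211 of the 212 cells, Amh in 201 and Wt1 in 192. All 3 reached 100 CPM in 185 cells, and 1 cell reached it for none.

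Over single cells, Inha had a median of 1743 CPM in members against 54.7 CPM in Nr2f2-positive and 26.5 CPM in germ cells. The median of Amh was 479 CPM in members and 0 in both other classes. An Amh UMI was present in 99.5% of members (Wilson 95% interval 97.4 to 99.9%), in 37.6% of Nr2f2-positive cells (31.5 to 43.98%) and in 37.9% of germ cells (36.1 to 39.8%). After thinning every cell to 50000 UMIs, which kept 173 members, the shares were 98.8%, 29.8% and 14.5%. The shares in the other classes are the background for a UMI of a Sertoli gene. These intervals cover counting error only.

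**Figure D2:**
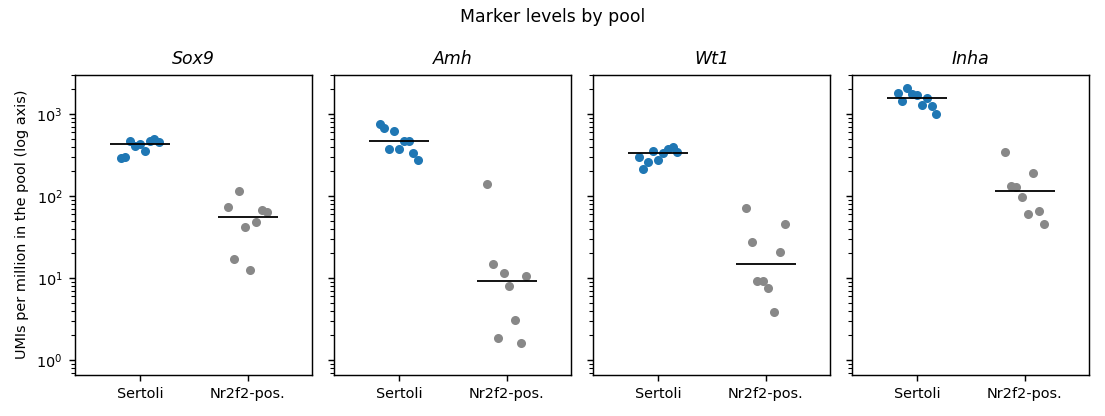
Levels of Sox9, Amh, Wt1 and Inha in CPM of the summed cells of a pool, on a log axis, with 1 point per pool (9 pools of Sertoli cells, blue, and 8 of Nr2f2-positive cells, grey) and a line at the median. The pools of the classes do not overlap in any of the panels, and Sox9 was itself used to choose the cells.

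Markers of other cell types were low in the Sertoli pools. The 8 interstitial markers summed to 21.1 to 388 CPM, against 4990 to 9263 CPM in pools of Nr2f2-positive cells. Nr2f2, which the rule used, is among the 8, and the other 7 summed to 19.9 to 385 CPM against 4547 to 8728 CPM. The 5 peritubular myoid markers summed to 12.4 to 136.3 CPM. The 10 germ cell markers, Ddx4 included, summed to 350 to 1005 CPM, against 2577 to 3409 CPM in germ cells. Without Ddx4, which the rule used, the 9 others summed to 330.02 to 927 CPM against 2224 to 2994 CPM. Dazl, a germ cell RNA-binding protein, reached 100 CPM in 75 members. Macrophage markers reached at most 26.1 CPM, and Ptprc, which defines leukocytes, was at 0. The summed Leydig markers lay between 9.93 and 119.03 CPM and the endothelial ones between 14.9 and 78.1 CPM, with Pecam1 at 100 CPM or more in 10 cells.

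Globin and Alas2 transcripts of red blood cells were uneven. Their sum was 2587 CPM at PND1 replicate 2 and 14.3 to 255 CPM in the other 8 pools.

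The Sertoli cells were then compared with Nr2f2-positive cells of the same pools. Both classes had 5 or more cells in 8 pools (187 and 156 cells), and the pool was kept as a block in edgeR's quasi-likelihood test. Sertoli cells had 1757 of 13627 genes higher (12.9%) and 2010 lower (14.8%) at an adjusted p under 0.05. Since the classes were cut by Sox9 and Nr2f2, many genes were bound to differ. The 3 genes of the rule were left out of the test, and the counts are a description of the cells chosen.

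Among genes whose log2 CPM averaged 5 or more, the 8 named for the largest excess in Sertoli cells were led by a vessel-active peptide and a tight junction protein. Cldn11 encodes claudin 11, the tight junction strand protein of Sertoli cells. It lay at 67.9 to 531 CPM in Sertoli pools and at 0.391 to 13.4 CPM in the Nr2f2-positive pools, a log2 difference of 5.98 ± 0.30 (SE, edgeR adjusted p = 2.4e-10). Edn1, which encodes the vessel-constricting peptide endothelin 1, had the largest difference of these 8 (132.04 ± 67.4 CPM against 1.68 ± 1.84 CPM, SD, n = 8 pools, log2 6.45 ± 0.45). The pools of the classes did not overlap for either gene. Both were picked for a large difference, which favours this, and the share over all genes is not given.

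To be named here, a gene had to be higher in Sertoli cells in 8 of 8 pools. The other 6 genes of this rank lay between 5.48 and 5.92 on the log2 scale. They were Aqp12, an aquaporin, Gdf15, a stress-induced member of the TGF-beta family, Gpr37, an orphan receptor, Shbg, the carrier of sex steroids, Cbln4, a cerebellin, and Ptgds, the prostaglandin D synthase. Shbg stood at 427 ± 110 CPM against 15.9 ± 27.2 CPM, and Ptgds at 469 ± 320 CPM against 30.2 ± 69.98 CPM.

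The 8 genes named by the same rule for the largest reduction in Sertoli cells were low there. Sostdc1, which encodes a secreted BMP and Wnt inhibitor, was at 0.243 ± 0.335 CPM in Sertoli cells and at 69.9 ± 43.4 CPM in Nr2f2-positive cells (log2 -7.85 ± 0.57, edgeR adjusted p = 1.1e-08). Osr1 and Ebf1, transcription factors of mesenchyme, were at 4.09 ± 4.21 and 4.95 ± 4.79 CPM, against 326 ± 99.9 and 480 ± 158 CPM. Sbspon, C1qtnf2, Hoxd10, Ddr2 and Cnrip1 completed the 8. Being lower in 8 of 8 pools was a condition for being named.

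Of 13 tested transcription factors of the Sertoli list, 7 were higher and 2 lower (median log2 1.298, against 0.08 over all genes tested). The counts of this and the following lists stand beside 12.9% of all genes higher and 14.8% lower. Wt1 stood at 310 ± 60.99 CPM against 24.2 ± 23.2 CPM (log2 3.98 ± 0.40), and Dmrt1, a factor of male fate, at 155 ± 46.4 CPM against 38.7 ± 29.1 CPM. The lower members were Tcf21 and Lhx9, factors of the interstitium and early gonad: Tcf21 was at 13.7 ± 8.91 CPM in Sertoli cells and 784 ± 214 CPM in Nr2f2-positive cells.

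Among hormones, growth factors and niche factors, 7 of 16 were higher and 5 lower (median log2 1.10, against 12.9% of all genes higher and 14.8% lower). Amh was at 276 to 750 CPM in the 8 Sertoli pools and at 1.596 to 139.7 CPM in the Nr2f2-positive pools, of which 7 stayed at or below 14.6 CPM. The difference was 5.34 ± 0.44 on the log2 scale (edgeR adjusted p = 4.3e-08). Dhh, the hedgehog ligand to which Leydig and myoid precursors respond, was among the steadiest, at 409 ± 40.9 CPM against 17.3 ± 31.2 CPM. Inha stood at 1512 ± 340 CPM against 133.2 ± 97.8 CPM. Kitl and Gdnf, ligands that germ cells depend on, are named here outside the rule. Kitl was higher (422 ± 64.2 against 83.9 ± 57.6 CPM), and Gdnf, at 23.7 ± 17.3 against 7.03 ± 8.00 CPM, had an edgeR adjusted p of 0.057. Igf1 was lower in Sertoli cells, at 32.4 ± 21.7 against 575 ± 181 CPM.

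Carriers, protease inhibitors and defensins gave the list with the highest median (log2 3.21), with 12 of 15 higher and 3 lower (12.9% and 14.8% of all genes). Clu, the chaperone clusterin, reached 1469 ± 169 CPM against 141.9 ± 83.7 CPM. Cst12, a cystatin, reached 1304 ± 200 CPM against 79.3 ± 49.4 CPM, and Defb36, a defensin, 443 ± 105.6 CPM against 15.2 ± 8.11 CPM. The ranges of the pools did not overlap for these 3 genes. They were picked by small p, which favours this, and the share over all genes is not given.

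Of 16 junction genes, 11 were higher and none was lower (median log2 2.76, against 14.8% of all genes lower). Gja1, the gap junction protein connexin 43, was at 639 ± 102.6 CPM against 42.1 ± 32.8 CPM. Jam2, an adhesion molecule of tight junctions, was nearly constant over the Sertoli pools at 286 ± 17.5 CPM, against 20.3 ± 27.7 CPM.

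The hormone receptors were divided, with 3 of 12 higher and 3 lower (median log2 -0.08, against 12.9% of all genes higher and 14.8% lower). Fshr, the receptor of follicle-stimulating hormone, was at 11.5 to 62.7 CPM in Sertoli pools and at most 2.67 CPM in the Nr2f2-positive pools (log2 6.50 ± 0.65). Amhr2, the receptor of AMH, stood at 478 ± 104.4 CPM against 26.3 ± 21.01 CPM. The lower members included Esr1 and Nr3c1, the receptors of oestrogen and of glucocorticoids. Of 6 androgen-responsive genes, 3 were higher and 1 lower (median log2 1.36), and Rhox8, an X-linked homeobox gene, reached 965 ± 123.5 CPM against 65.3 ± 48.3 CPM.

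Promoters of 4 of these genes are printed because they stood apart from the Nr2f2-positive cells by 4.59 to 6.50 on the log2 scale and belong to the junction, the paracrine and hormone signal, and the day-dependent set below. All 4 were found in the RefSeq table (GRCm38.p6), and each is the 200 bases before the gene's start, read 5′ to 3′ on the gene's strand. Cldn11 is chr3:31149720-31149919 on the plus strand, Dhh chr15:98898541-98898740, Fshr chr17:89200676-89200875 and Wfdc6a chr2:164585448-164585647 on the minus strand. Capitals mark a match to 1 of 5 motifs searched on both strands: AACAAT of SOX factors, AAGGTCA of NR5A1, AGATAA of GATA factors, CCAAT, and the GC box GGGCGG.
Cldn11: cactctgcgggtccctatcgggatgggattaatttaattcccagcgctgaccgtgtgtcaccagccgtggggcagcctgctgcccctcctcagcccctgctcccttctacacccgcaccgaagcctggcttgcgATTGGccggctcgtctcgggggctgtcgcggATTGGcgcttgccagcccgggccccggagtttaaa
Dhh: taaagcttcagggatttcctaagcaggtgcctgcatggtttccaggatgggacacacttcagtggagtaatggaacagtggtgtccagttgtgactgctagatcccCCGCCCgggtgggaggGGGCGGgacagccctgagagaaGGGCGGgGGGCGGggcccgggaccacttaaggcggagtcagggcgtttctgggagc
Fshr: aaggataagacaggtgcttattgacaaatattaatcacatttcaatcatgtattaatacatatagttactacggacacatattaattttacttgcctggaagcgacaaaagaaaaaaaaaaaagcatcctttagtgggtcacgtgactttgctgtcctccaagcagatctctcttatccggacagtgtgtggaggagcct
Wfdc6a: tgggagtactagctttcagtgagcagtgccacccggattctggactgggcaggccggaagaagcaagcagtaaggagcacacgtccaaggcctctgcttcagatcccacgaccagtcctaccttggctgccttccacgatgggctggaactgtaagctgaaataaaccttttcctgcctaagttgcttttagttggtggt

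Cldn11 holds CCAAT on the opposite strand, beginning 66 and 35 bases before the start, and 30.02% of 27020 promoters of this length hold at least 1. Dhh holds the GC box at 4 places, the first 94 and the last 49 bases before the start, and 31.3% of all promoters hold at least 1. The letters of the SOX, NR5A1 and GATA motifs occur in none of these 4 windows and in 7.65%, 3.15% and 7.98% of all.

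Genes of energy supply and of the extracellular matrix went different ways. The shares over all genes to set beside them were 12.9% higher and 14.8% lower. In glycolysis and lactate export, 8 of 19 genes were higher and 2 lower (median log2 0.15). Ldhb, a lactate dehydrogenase subunit, was at 1023 ± 172 CPM against 371 ± 126.6 CPM, and Slc16a3, a lactate exporter, at 183 ± 56.03 CPM against 54.8 ± 23.5 CPM. In the basement membrane, 2 of 16 were higher and 8 lower (median log2 -1.70). Col18a1 was higher at 225 ± 36.4 CPM against 23.6 ± 14.5 CPM, and Lama2, a laminin chain, lower at 9.55 ± 6.74 CPM against 262 ± 60.3 CPM.

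For the next 4 lists, too, the shares over all genes were 12.9% higher and 14.8% lower. In cholesterol synthesis, none of 20 genes was higher and 7 were lower (median log2 -0.55), among them Sqle, squalene epoxidase, at 56.5 ± 17.5 CPM against 136.7 ± 50.03 CPM. In the Notch list, none of 13 was higher and 4 were lower (median log2 -0.72), with Hes1, a target gene, at 70.8 ± 36.8 CPM against 239 ± 117.4 CPM. Retinoid genes gave 3 higher and 5 lower of 17 (median log2 -0.58). Aldh1a1, a retinoic acid producer, and the receptor Rara were higher, and Cyp26b1, which degrades retinoic acid, was lower. Uptake of dying cells and lysosome gave 4 higher and 2 lower of 13 (median log2 0.58), with Tyro3, a receptor for dying cells, at 187 ± 30.05 CPM against 20.02 ± 13.7 CPM and the lysosomal Lamp2 at 148 ± 19.3 CPM against 301 ± 83.5 CPM.

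**Figure D3:**
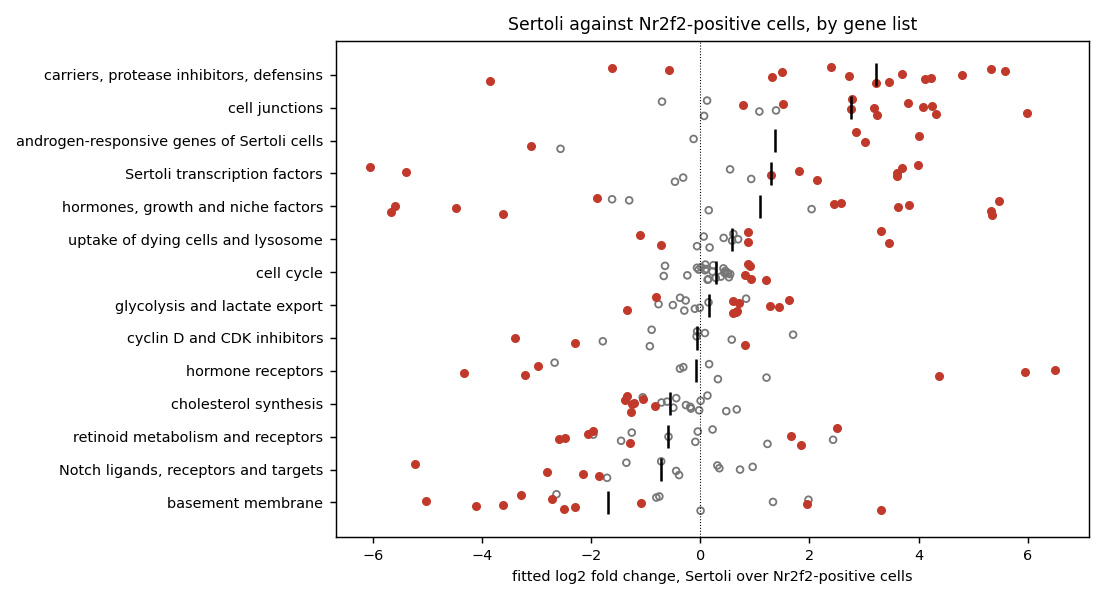
Fitted log2 difference between Sertoli and Nr2f2-positive cells for each tested member of the 14 gene lists. Red points passed an adjusted p of 0.05, open points did not, and the bar is the list's median, highest for carriers, protease inhibitors and defensins (3.21) and lowest for the basement membrane (-1.70).

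UMIs of proliferation genes were found on every day tested, which leaves out PND0, PND3 and PND8. At least 2 of Mki67, Top2a and Cdk1 had a UMI in 192 of 212 members (90.6%, Wilson 95% interval 85.9 to 93.8%), and in 154 of 173 members after thinning (89.02%). The interval covers counting error only. After thinning, Top2a had a UMI in 87.9% of members, 81.2% of Nr2f2-positive and 96.1% of germ cells. For Cdk1 these shares were 94.8%, 73.5% and 88.8%, and for Mki67 73.4%, 53.6% and 78.1%. A UMI of these genes was common in every class, so the shares do not count dividing cells. In the thinned cells of the 9 pools the share of members with at least 2 of these genes ran from 69.2% at PND5 replicate 2 to 100% at PND4 replicate 2 and PND7 replicate 2. Mki67, a marker of dividing cells, was at 159 ± 52.7 CPM in Sertoli and 154 ± 46.8 CPM in Nr2f2-positive cells. Of 27 cell cycle genes, 5 were higher than in Nr2f2-positive cells and none lower (median log2 0.28), with Aurka at 1.20 ± 0.28 and Ube2c at 0.87 ± 0.19. Over all genes, 12.9% were higher and 14.8% lower. In the list of cyclin D and inhibitors, 1 of 11 was higher and 2 lower, which is near these shares. Ccnd2, a cyclin D, stood at 1003 ± 250 CPM against 530 ± 120.9 CPM, and Cdkn1c, an inhibitor of the cycle, at 12.8 ± 8.93 CPM against 112.4 ± 52.9 CPM. The other lower member was Ccnd3, also a cyclin D (log2 -2.29 ± 0.45, lower in 8 of 8 pools).

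The change with age was fitted as a slope over postnatal day, on the summed counts of the 9 pools. Of 12850 genes, 11 rose (0.0856%) and 5 fell (0.0389%) at an adjusted p under 0.05 by edgeR's quasi-likelihood test. At an unadjusted p under 0.05, 447 genes (3.48%) had a positive and 427 (3.32%) a negative slope, and the median slope was -0.0009 log2 per day. DESeq2 called 63 rising and 30 falling genes, among them all 16.

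Qpct, which encodes glutaminyl cyclase, an enzyme that closes the N-termini of secreted peptides, had the clearest rise. It lay at 27.1 CPM at PND1 replicate 2, 34.2 at PND2 replicate 1, 65.9 at PND4 replicate 2, 115.5 and 168 at PND5 replicates 1 and 2, 205 and 272 at PND6, and 365 and 372 at PND7. Every pool was above those of earlier days, and the slope was 0.65 ± 0.06 log2 per day (SE, edgeR adjusted p = 3.9e-06). The slope was 0.63 ± 0.06 in the 6 pools of 1 library name prefix. Qpct was called in each of the 9 fits that left out a pool. In Nr2f2-positive cells it spread from 10.9 to 168 CPM, and its difference between the classes (log2 1.49 ± 0.48) lost its call without PND5 replicate 2 (adjusted p = 0.077), PND6 replicate 1 (0.092), PND6 replicate 2 (0.073) or PND7 replicate 1 (0.059). The call was also lost with at least 10 cells per pool (0.071), without Nr2f2-positive cells that held Sox9 (0.055), without replicate 1 (0.072) and without replicate 2 (0.17), so that it was lost in 8 of 21 settings.

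Cldn11 rose within Sertoli cells as well. Its level was 67.9 CPM at PND1, 142.3 at PND2, 237 at PND4, 396 and 224 at PND5, 354 and 251 at PND6, and 531 and 464 at PND7, replicate 1 first where there are 2. PND7 was above all other pools, and the replicates of PND5 and PND6 lay farther apart than the means of these days. The slope was 0.39 ± 0.06 log2 per day (edgeR adjusted p = 0.0099), and 0.42 ± 0.06 in the pools of 1 prefix.

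Wfdc6a and Wfdc6b, which encode whey acidic protein domain proteins of the protease inhibitor type, had the steepest rises among the called genes. Wfdc6a was at 1.48 CPM at PND1, 5.63 at PND2, 59.2 at PND4, 146.5 and 47.7 at PND5, 156 and 60.99 at PND6, and 149 and 137.6 at PND7 (0.90 ± 0.16 log2 per day). From PND4 on its levels overlapped between days. Wfdc6b followed at 0.86 ± 0.15 log2 per day with almost the same levels (1.48 to 142.9 CPM). They lie close together on chromosome 2 (164579519 to 164585447 and 164613522 to 164618212), so that how the counting divided reads between these similar genes is uncertain.

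Cadm1, an adhesion molecule through which Sertoli cells hold germ cells, lay at 88.6 CPM at PND1 and 65.9 at PND2 and at 332 and 378 CPM in the PND7 pools (0.37 ± 0.06). Clec12b, a C-type lectin receptor, lay at 90.6 CPM at PND1 and at 405 and 467 CPM at PND7 (0.28 ± 0.05). Dmrta1, a relative of Dmrt1, and Arl4a, a small GTPase of the ARF family, rose by 0.60 ± 0.11 and 0.33 ± 0.06 log2 per day. The other 3 rising genes were outside the rule for named genes and are given because they complete the 11. They were Etd (0.28 ± 0.05), 4933402E13Rik (0.38 ± 0.07) and 1700011M02Rik (0.79 ± 0.13), all on the X chromosome. In the 6 pools of 1 prefix, Arl4a (0.31 ± 0.07, edgeR adjusted p = 0.057) and Etd (0.22 ± 0.05, 0.083) lost their call.

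Germ cell markers were higher in some of the later Sertoli pools. Their sum was 365 to 421 CPM up to PND4 and 350 to 1005 CPM after, with 808 CPM at PND5 replicate 2 and 1005 CPM at PND7 replicate 2. The members of PND7 replicate 2 held a median of 291296 UMIs and 10517.5 genes. In the other tested pools the median was 60760.5 to 156285 UMIs, with 72543 UMIs at PND5 replicate 2. The median germ cell held 287254 UMIs. Of the 8 markers tested, 3 had a positive slope at an unadjusted p under 0.05 (Dazl, Uchl1 and Zbtb16) and none passed the adjusted threshold (median 0.16 log2 per day). Of the 11 rising genes, 3 were also at a median of over 50 CPM in pools of germ cells, Cadm1 at 223 CPM, Arl4a at 146.9 CPM and 1700011M02Rik at 61.9 CPM. The other 8 had medians of 1.10 to 15.2 CPM there. The part of germ cell RNA in these rises was not tested.

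Ptgds had the clearest fall. It lay at 1135 CPM at PND1, 736 at PND2, 493 at PND4, 190 and 324 at PND5, 197 and 366 at PND6, and 284 and 218 at PND7. The 3 earliest pools were above all later ones, which did not order by day. The slope was -0.38 ± 0.05 log2 per day (edgeR adjusted p = 0.0025), and -0.37 ± 0.05 in the pools of 1 prefix. Its call was lost without PND1 replicate 2.

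Pnmt, which encodes the enzyme that makes adrenaline from noradrenaline, was at 275, 359 and 205 CPM in the pools of PND1, PND2 and PND4 and at 19.5 to 123.2 CPM later, the 123.2 CPM at PND6 replicate 2 (-0.65 ± 0.12 log2 per day). In the pools of 1 prefix its slope was -0.57 ± 0.13 and its adjusted p 0.081. Spats2l was at 227 CPM at PND1 and 24.6 and 45.7 CPM at PND7 (-0.41 ± 0.07). Rcn3, a calcium-binding protein of the secretory pathway, was at 121.5 to 128.6 CPM up to PND4 and at 13.7 to 49.5 CPM from PND5 on (-0.55 ± 0.10). Rcn3 was at 702 ± 142.6 CPM in Nr2f2-positive cells, and the interstitial markers in the Sertoli pools summed to 131.7 to 223 CPM up to PND4 and 21.1 to 388 CPM after. Their part in the fall was not tested. Apoc1, an apolipoprotein of low level named outside the rule, was at 27.6 and 113.2 CPM at PND1 and PND2 and at most 3.21 CPM later (-1.08 ± 0.21). Macrophage markers summed to 26.1 CPM at PND2 and 0 to 18.6 CPM in the other pools, and their part in the Apoc1 values was not tested.

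**Figure D4:**
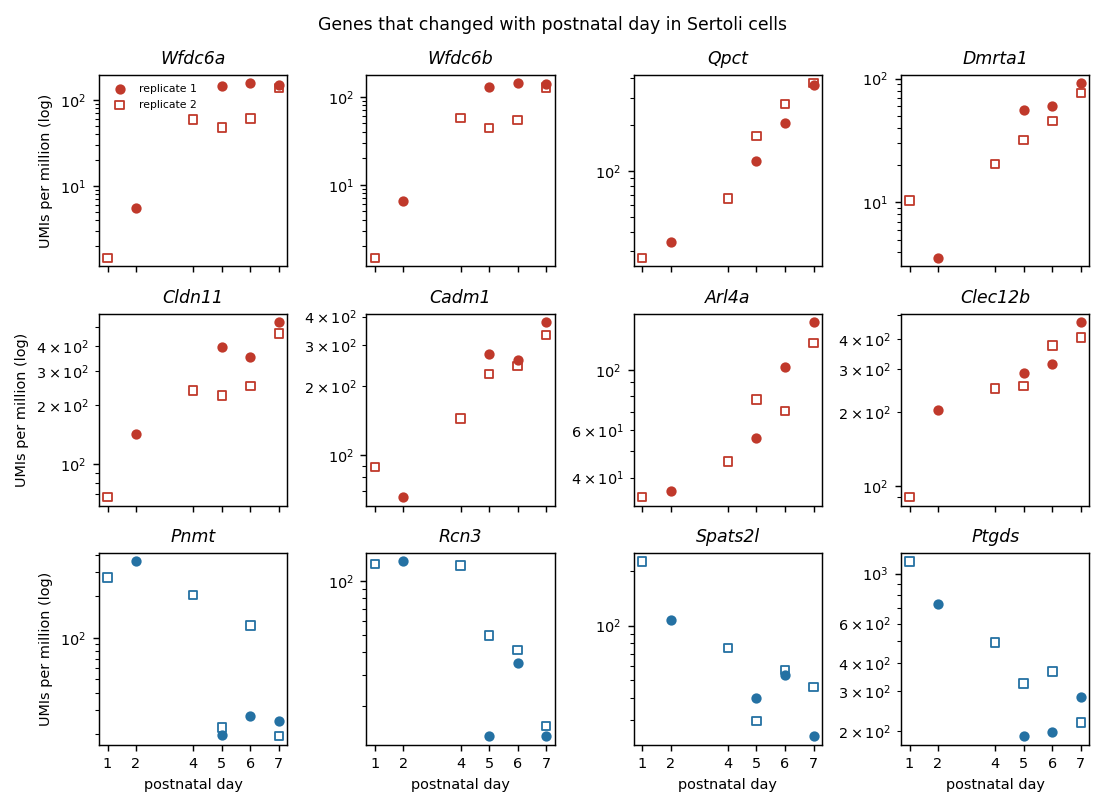
Level of the 8 rising (red) and 4 falling (blue) named genes in CPM, on a log axis that differs between panels, in the 9 pools of Sertoli cells by postnatal day. Filled circles are replicate 1 and open squares replicate 2, and Qpct rises from 27.1 at PND1 to 365 and 372 at PND7 while Ptgds goes from 1135 to 284 and 218.

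These calls rest on few pools. Without PND7 replicate 1 only 2 genes were called, without PND1 replicate 2 only 3 and without PND2 replicate 1 only 5, while without PND5 replicate 1, the pool of fewest cells, 66 were. Of the 16 genes, those called in all of these 4 fits were Qpct alone. Over the 25 other settings, Qpct was called in 24, Ptgds in 21, Wfdc6a and Cldn11 in 19 and Cadm1 in 18. Spats2l, Wfdc6b and Clec12b were called in 17, 4933402E13Rik and 1700011M02Rik in 15 and Etd in 14. Pnmt was called in 13, Dmrta1 and Rcn3 in 12, Arl4a in 7, and Apoc1 in 11 of the 21 in which it was tested.

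Members of the days without a tested pool can be set beside the slopes, as a description with few cells. The 2 members of PND1 replicate 1, 1 of PND2 replicate 2 and 2 of PND4 replicate 1 were also outside the tests. Their levels are not given. The 2 cells of PND8 held 86.1 and 144.7 CPM of Ddx4, against a median of 31.3 CPM over all members. Their libraries carry a name prefix that none of the tested pools has. The part of germ cell RNA and of the libraries in their levels was not tested. The 4 cells of PND0 summed to 117.6 CPM of Cldn11, 107.4 of Clec12b and 71.6 of Cadm1, and the 2 cells of PND8 to 653, 468 and 408 CPM. Qpct was at 89.5 CPM at PND0, above the pools of PND1, PND2 and PND4, and at 408 CPM at PND8. Ptgds was at 1792 CPM at PND0, and no UMI of it was found among the 2 cells of PND8, which allows up to 10.5 CPM (3 counts). Pnmt was at 637 CPM at PND0 and 62.8 CPM at PND8. Spats2l, at 40.9 CPM, and Rcn3, at 66.5 CPM, were not highest at PND0, and Apoc1 had 1 UMI there. In the same cells of PND0 the cell cycle genes Ccna2, Aurka and Cdc20 had 1 UMI each, Bub1 had 2 and Plk1 had 0. Ube2c was at 23.01 CPM there. Ccna2 was at 333 CPM in the 6 cells of PND3 and 223 CPM at PND8, and Aurka at 312 and 76.8 CPM.

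The 6 cells of PND3 lay partly off the slopes. Cldn11 was at 108.03 CPM, below PND0 and PND2, and Pnmt at 444 CPM, above PND1 and PND2. Ptgds, at 775 CPM, was above PND2, while Rcn3, at 22.2 CPM, and Spats2l, at 35.5 CPM, were below PND4. Qpct (54.8 CPM), Cadm1 (93.2 CPM) and Wfdc6a (13.3 CPM) lay between PND2 and PND4, and Clec12b, at 181 CPM, lay below PND2. No UMI of Apoc1 was found, which allows up to 4.44 CPM (3 counts).

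Genes of Sertoli cell maturation that did not pass the test are given by their values. Amh lay at 750 CPM at PND1, 680 at PND2, 376 at PND4, 620 and 372 at PND5, 464 and 472 at PND6, and 335 and 276 at PND7, with 1161 CPM in the cells of PND0 and 178 CPM in those of PND8. The PND7 pools were the lowest. The slope was -0.20 ± 0.05 log2 per day (edgeR adjusted p = 0.20), and with library name prefix as a term it passed (-0.19 ± 0.04, adjusted p = 0.047). That fit was chosen after seeing the data. In the pools of 1 prefix the adjusted p was 0.083, and Amh passed in 5 of 25 settings. Inha (-0.10 ± 0.05) and Wt1 (0.08 ± 0.04) had adjusted p-values of 0.74 and 0.82.

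Over the 14 gene lists, 2 members passed, Cldn11 among 15 tested junction genes and Ptgds among 17 secreted factors. Over all 12850 genes tested, 0.125% passed, and the median slope was -0.0009 log2 per day. The medians of the slopes in the lists were between -0.10 (secreted factors, 17 genes) and 0.15 log2 per day (retinoid genes, 16 genes). In the junction list 11 of 15 slopes were positive, with Cgn, cingulin, at 0.25 ± 0.06 (edgeR adjusted p = 0.11) and Ocln, occludin, at 0.18 ± 0.06 (0.42). Cgn had an adjusted p of 0.016 with prefix as a term and 0.052 in the pools of 1 prefix, and passed in 5 of 25 settings. In the cell cycle list 21 of 27 slopes over PND1 to PND7 were negative (median -0.07), with Aurka at -0.15 ± 0.05 (0.50) and Cdc20 at -0.21 ± 0.08 (0.56). Ccnd2 was at 1267 CPM at PND1 and at 724 and 594 CPM at PND7 (-0.13 ± 0.05, adjusted p = 0.58). In the list of carriers and inhibitors Aard, an alanine- and arginine-rich protein, had 0.23 ± 0.05 (0.071), and passed with prefix as a term (0.0063) and in the pools of 1 prefix (0.043). Aard passed in 7 of 25 settings.

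Among transcription factors Nr0b1, a nuclear receptor of gonads and adrenals, had 0.23 ± 0.07 (edgeR adjusted p = 0.44, and 0.022 in the pools of 1 prefix, where the slope was 0.34) and Gata1 0.37 ± 0.13 (0.49). Nr0b1 passed in 1 of 25 settings. In glycolysis Slc16a3 had 0.17 ± 0.06 (0.48), and in the basement membrane Col4a1 had -0.23 ± 0.06 (0.20). Of the androgen-responsive genes Eppin, a protease inhibitor, had 0.33 ± 0.11 (0.45). Dhrs3, which reduces retinal, had 0.56 ± 0.18 (0.42) and Scarb1, a receptor of lipoproteins and dying cells, -0.13 ± 0.04 (0.45). In the Notch list Lfng had 0.40 ± 0.16 (0.65). No gene of cholesterol synthesis had an unadjusted p under 0.05 (20 genes, median 0.03).

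The 4 tested red blood cell markers had negative slopes with unadjusted p under 0.05 (median -0.64), with Hbb-bs at 647 CPM at PND1 replicate 2 and at most 65.2 CPM in the other pools, and none passed the adjusted threshold.

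**Figure D5:**
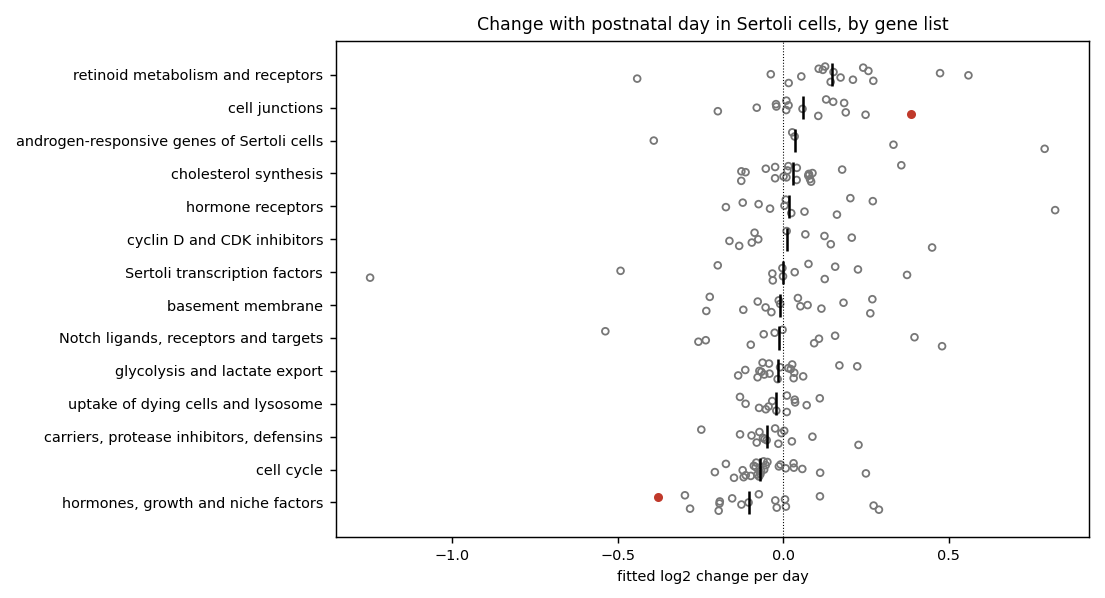
Fitted log2 change per postnatal day in Sertoli cells for each tested member of the 14 gene lists. Red points passed an adjusted p of 0.05 (Cldn11 above 0 and Ptgds below 0), open points did not, and the bar is the list's median, between -0.10 and 0.15.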

How the data were processed

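The authors deposited UMI counts per gene and cell without normalization, with a table of cells that gives time point, genotype, replicate and library. Per the labels and the study's methods, CASAVA 1.8 is named for the reads, barcodes and UMIs were extracted with UMI-tools, reads were aligned to mm10 with STAR, and those with a unique place were assigned to genes with featureCounts of Subread. The deposited counts had 31053 rows, and each of the 3244 cells' sums equalled the total in the table of cells. The labels place all 147 libraries in 1 group, so day and replicate come from that table. Cells were picked singly and no doublet caller was run, so that mixed cells were not tested for.

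Counts of the members were summed per pool with at least 5 cells. CPM values in the text are these sums over the pool's total. Tests were edgeR 4.0.16 (limma 3.58.1, R 4.3.3) quasi-likelihood fits with TMM and filterByExpr. P-values were Benjamini-Hochberg adjusted over all genes tested, at 0.05. In simulated data, with changed genes of log2 CPM 5 or more, 40.5% were recovered at 0.25 log2 per day and 95% at 0.5. For class differences of 1 and 2 log2, 39% and 99% were recovered. False calls were 2.4 to 4% of calls. DESeq2 1.42.0 was an alternative. Summed depth was 805445 to 5324929 UMIs. Coordinates are GENCODE M21 on mm10, not the release used for the counts. Figures and sums used Python 3.11.15.

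Members and gene lists were chosen with earlier results of these data known. Named genes were the 4 markers and the rule's genes, and per comparison the 8 largest rises and 8 largest falls past the threshold with mean log2 CPM of at least 5 and the same sign in both replicates (day) or every pool (classes), leaving out mitochondrial, Gm and Rik genes. From each list, up to 6 members by smallest p for day and up to 4 for the classes were added. Alternatives were another normalization, filters, minimum cells, thresholds, thinning to 50000 UMIs, covariates, blocks, and leaving out pools or replicates. Fits on 1 library name prefix, with prefix as a term and without PND7 were chosen after seeing the data. The result for 1 gene is not reported here.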

Additional observations from a re-analysis of the deposited data

Results flagged for a closer look

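Of 46 groups of pools checked for a single pool far from the rest (named genes of the class comparison in both classes, and marker lists in Sertoli cells), 13 had one. For independent groups of normally distributed values, chance would mark about 1 in 20. The values here were CPM without a log scale, some of a few CPM, and the groups share pools. That rate therefore does not hold here, and the number flagged cannot be set against it.

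In the Nr2f2-positive cells, PND1 replicate 2 stood far above the next pool for 5 Sertoli genes. Amh was at 139.7 CPM there, against 14.6 in the next pool, Ptgds at 203 against 20.1, Shbg at 80.2 against 25.3, Gpr37 at 31.7 against 5.35 and Cbln4 at 24.3 against 2.29 CPM. Of the 20 Nr2f2-positive cells of that pool, 5 also held at least 100 CPM of Sox9. Their part in these values was not tested.

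In the Sertoli cells of the same pool, PND1 replicate 2, the red blood cell markers summed to 2587 CPM against 255 CPM in the next pool, and Osr1 was at 13.8 against 5.82 CPM.

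The other pools apart from the rest were Cbln4 in Sertoli cells of PND4 replicate 2 (173 against 100.8 CPM), Ebf1 in those of PND6 replicate 1 (15.7 against 7.38 CPM), Ddr2 in those of PND7 replicate 1 (2.84 against 1.34 CPM) and Hoxd10 in those of PND7 replicate 2 (4.54 against 2.04 CPM). In Nr2f2-positive cells they were Aqp12 at PND2 replicate 1 (3.93 against 1.55 CPM) and Sbspon at PND7 replicate 1 (228 against 99.4 CPM).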

How the results depend on the processing

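The number of genes that changed with postnatal day in Sertoli cells depended on the setting. Against 16 genes (11 rising, 5 falling), DESeq2 called 93 (63, 30), no filter on low counts 1 (1, 0), at least 10 cells per pool 66 (41, 25) and at least 3 cells 35 (16, 19). Thinned cells gave 25 (10, 15), Ddx4 under 50 CPM 5 (4, 1) and Sox9 of at least 200 CPM 8 (6, 2). Without replicate 1 there were 20 (8, 12) and without replicate 2 there were 0 (0, 0). With mean UMIs per cell as covariate there were 22 (13, 9). The pools of 1 library name prefix gave 44 (28, 16), prefix as a term 85 (45, 40) and leaving out PND7 3 (2, 1). Leaving out 1 pool gave 2 to 66 genes (1 to 41 rising, 0 to 25 falling). The extremes were without PND7 replicate 1 (2 genes) and PND5 replicate 1 (66). Without PND1 replicate 2 there were 3 (0 falling), and without PND2 replicate 1 there were 5. The falling count alone moved to 8 without PND5 replicate 2 and to 3 without PND6 replicate 1 or PND7 replicate 2. The cause was not tested, except that settings without pools or replicates use fewer samples. The replicate block gave 19 genes (13 rising, 6 falling), 14 of them among the 16; differences between replicates 1 and 2 correlated across days by 0.03 to 0.10, so the numbers were not taken as pairing. Each of the 16 genes kept its sign in every setting in which it was tested. Over 45 genes, of 1097 refits by day, 921 kept their direction and side of the threshold, 30 gained a call, Wt1 reversed with at least 3 cells per pool (-0.0019 log2 per day), and all the others lost their call.

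The class comparison was steadier. Against 1757 higher and 2010 lower genes (3767), leaving out replicate 1 gave 2202 (946, 1256) and replicate 2 gave 2003 (819, 1184), with fewer pools. Without the block of pools there were 3055 (1282, 1773), and without Nr2f2-positive cells that held Sox9 there were 3343. Leaving out 1 pool gave 3136 to 3610 genes (1374 to 1668 higher, 1701 to 1977 lower). Over 80 genes, 37 refits lost a call, 5 gained one (Gdnf), and none reversed. The share of members with an Inha UMI was 99.5%, and 100% after thinning. Depth limits genes of a few CPM, and days without 5 cells per pool were not tested.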
